A study of Mus musculus with 32 samples.

Results

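Tecr, the trans-2-enoyl-CoA reductase, and 9 other genes that encode enzymes of the cycle lengthening long and very long fatty acids were followed in the embryonic brain of cadherin mutant mice. The 10 genes were matched by Ensembl identifier to the deposited tables of expression values, and all 10 were found among the 48576 identifiers listed. Tecr was chosen because its values were higher in each mutant group than in the wild type (WT), so its mutant values below are a description with no test. The other 9 were chosen by their place in the cycle, and the question asked of them was whether they changed along with Tecr.

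RNA was sequenced from the forebrain (Fb) and the midbrain (Mb) of mouse embryos at embryonic day 9.5, dissected separately, all of strain B6C3F1 by the labels. In each tissue there were 6 WT libraries, 4 libraries of Cdh6, Cdh8 and Cdh11 triple knockouts with exencephaly, an open brain (TKO_Ex), 3 of double knockouts with exencephaly (DKO_Ex) and 3 of double knockouts with a cranial defect (DKO_CD), 32 in all. The mutant alleles are small CRISPR deletions at the exon that carries the start codon. Mutant embryos came from intercrosses of mice heterozygous for all 3 genes and WT embryos from matings of WT mice, so genotype and mating cannot be told apart. The labels give DKO_Ex as a Cdh8 and Cdh11 knockout and DKO_CD as a Cdh6 and Cdh8 knockout, whereas the methods of the study name Cdh8 and Cdh11 for both. In the 12 DKO tables the column heading named the opposite DKO group from the sample record; headings were followed here, and the comparison of all mutants with WT does not depend on that choice. Nothing in the labels says that each library came from a separate embryo, so p-values measure the spread between libraries, which may be technical.

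Fatty acids made in the cytosol are lengthened at the endoplasmic reticulum by a repeated cycle. An elongase of the ELOVL family condenses an acyl-CoA with malonyl-CoA, HSD17B12 reduces the ketone formed, a dehydratase of the HACD family removes water, and TECR reduces the remaining double bond to give the longer acyl-CoA. Each elongase prefers particular chains, whereas the later steps are shared. The products are built into sphingolipids and membrane phospholipids, which are abundant in nervous tissue, and TECR also takes part in the breakdown of sphingosine 1-phosphate.

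The genes of the 2 reductases that follow every elongase carry copies of the 5 letters ATTGG, or CCAAT on the opposite strand, the core of the CCAAT box, in the 250 bases before their RefSeq start site. Their promoters are shown because Tecr and Hsd17b12 are the members whose levels the comparisons below set side by side. Both are printed on the strand of the gene from RefSeq on GRCm38.p6, Tecr from chr8:83594492-83594741 and Hsd17b12 from chr2:94157910-94158159, each on the minus strand, with the motif in capitals:
Tecr: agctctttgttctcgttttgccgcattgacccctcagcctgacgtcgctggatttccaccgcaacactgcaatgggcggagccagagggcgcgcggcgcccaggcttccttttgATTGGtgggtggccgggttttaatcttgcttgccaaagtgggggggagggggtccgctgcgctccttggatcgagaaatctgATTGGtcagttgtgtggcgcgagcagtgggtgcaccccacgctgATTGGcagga
Hsd17b12: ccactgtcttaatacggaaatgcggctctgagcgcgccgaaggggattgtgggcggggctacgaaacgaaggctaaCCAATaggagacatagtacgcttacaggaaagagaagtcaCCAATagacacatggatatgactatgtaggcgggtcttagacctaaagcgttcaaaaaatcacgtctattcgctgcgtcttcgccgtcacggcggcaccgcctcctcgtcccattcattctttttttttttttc
In the GENCODE annotation 8 of 14 Tecr transcripts start within 100 bases of that RefSeq start, whereas 1 starts 13.5 kb upstream of it and sets the outer end of the gene given further on, so the printed window lies inside those gene bounds. The Tecr promoter holds 3 copies and that of Hsd17b12 holds 2. Of 32536 mouse promoters of this length, 33.8% held at least 1 copy on either strand, 10.1% at least 2 and 2.78% at least 3. Elovl5 had 2 copies, Hacd3 and Elovl1 had 1 each, and the promoters of Hacd1, Hacd2, Elovl2, Elovl4 and Elovl6 had 0. A match is a description of the letters and says nothing of binding.

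Values are FPKM, fragments counted per kilobase of transcript and scaled to the mapped fragments of the library, so that genes of unequal length can be compared. The depth recovered from the smallest steps of long genes ran from 1950000 to 3245000 fragments per library. At that depth Tecr rested on 375 to 1241 fragments per library and the least abundant members, Elovl4 and Hacd2, on 28 to 68 and 29 to 102. The targeted genes were read first. Cdh6 was 0.345 to 0.388 FPKM in Mb and 0.572 to 1.84 in Fb in 3 of the 4 TKO_Ex replicates, but 3.10 and 3.74 FPKM in the libraries labelled TKO_Ex replicate 3, within the WT range. Cdh8 was 0.851 to 2.49 FPKM in mutant Mb and 1.14 to 10.1 in WT Mb, and Cdh11 was 14.5 to 27.2 and 17.9 to 28.7. In DKO_CD, labelled a Cdh6 and Cdh8 knockout, Cdh6 was 1.29 to 2.11 FPKM in Mb and 1.72 to 3.43 in Fb. In DKO_Ex it was 1.86 to 3.12 and 3.62 to 4.34 FPKM, and in WT 1.04 to 3.55 and 2.04 to 3.997. The Cdh6 level seen in the other 3 TKO_Ex replicates of Mb was thus in no DKO library, whichever gene pair is named for DKO_CD. The summed midbrain markers were 30.1 FPKM in WT Mb replicate 5, the lowest of the Mb libraries of any group. Results are therefore also given without TKO_Ex replicate 3 and WT Mb replicate 5. Forebrain markers separated the tissues, with all 5 lower in WT Mb than in WT Fb, and 4 of 5 midbrain markers were higher in WT Mb. These are whole tissue samples, in which fewer cells of a type and less RNA per cell cannot be told apart.

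Among the members, Tecr had the highest level in the WT brain, at 154 ± 18.8 FPKM (SD, n = 6) in Mb and 156 ± 14.2 FPKM (n = 6) in Fb. Hsd17b12, the ketoacyl-CoA reductase, followed at a mean of 47.5 FPKM in Mb and 46.0 in Fb. Elovl5, an elongase of polyunsaturated chains, came next at 41.5 and 40.2 FPKM. Hacd3, Hacd1, Elovl6, Elovl2 and Elovl1 lay between 14.1 and 27.0 FPKM in both tissues, and the dehydratase Hacd2 and the elongase Elovl4 were lowest, at 5.63 to 6.11 FPKM. In this order the WT libraries of neighbouring genes did not overlap only below Tecr, below Elovl5 and above Hacd2. All other neighbours in the order overlapped.

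Between the 2 WT tissues none of the 10 members passed the threshold of an adjusted p of 0.05 (limma, Benjamini-Hochberg over 13344 genes), in a comparison where 8.26% of the genes did. The Tecr difference, Mb minus Fb on the log2(FPKM + 1) scale, was -0.02 with a 95% interval of -0.21 to 0.17 (two-sided exact permutation p = 0.792). The dehydratase Hacd3 was 0.22 higher in Mb with an adjusted p of 0.175 by limma, and it was the only member with an unadjusted p under 0.05, as had 20.9% of all genes. Elovl1, which lengthens saturated chains for sphingolipids, was -0.31 on the same scale with an adjusted p of 0.252 by limma. Elovl2 was 0.24 and Hacd1 0.22, with adjusted p of 0.355 and 0.448 by limma.

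Tecr had higher FPKM in each of the 20 mutant libraries than in any of the 12 WT libraries. In Mb the WT libraries ran from 136 to 186 FPKM with a median of 151. The TKO_Ex libraries were at 337, 302, 246 and 283 FPKM, the DKO_Ex libraries at 279, 302 and 301, and the DKO_CD libraries at 293, 278 and 229. The groups of Mb did not overlap with WT, and the 3 mutant groups overlapped with each other. In Fb the WT libraries ran from 132 to 173 FPKM with a median of 159. The TKO_Ex libraries were at 280, 232, 226 and 268 FPKM, the DKO_Ex libraries at 263, 288 and 284, and the DKO_CD libraries at 264, 255 and 285. Again no mutant library reached down to the WT range. At the edge between the groups stood the lowest mutant library at 226 FPKM, TKO_Ex Fb replicate 3, and the highest WT library at 186 FPKM, from Mb.

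**Figure D1:**
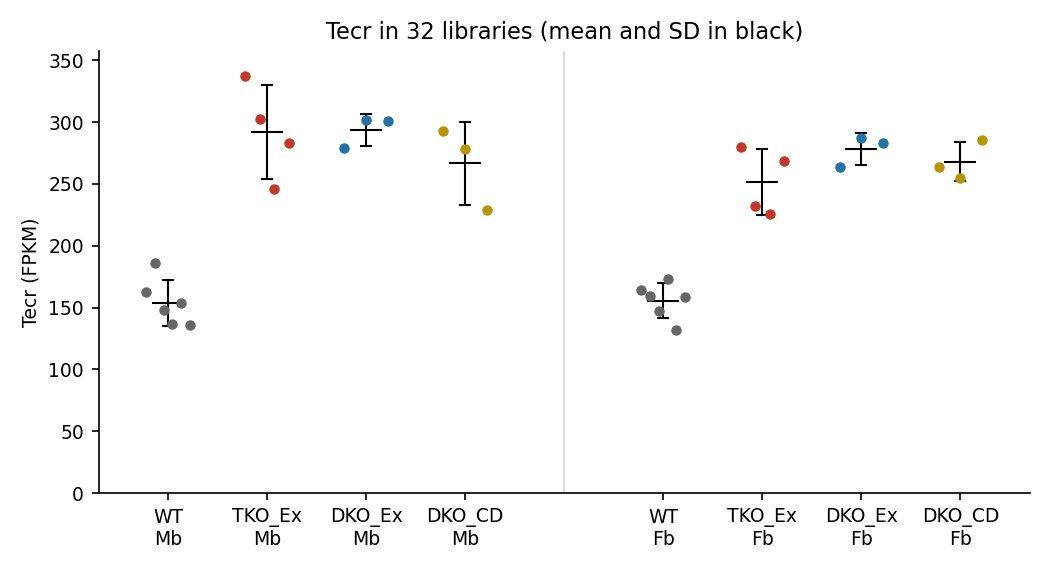
Tecr FPKM in each library (points) of WT, TKO_Ex, DKO_Ex and DKO_CD, Mb and Fb apart, with the mean and SD of each group. Every mutant library lies at 226 FPKM or more and every WT library at 186 FPKM or less.

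As ratios of group means in Mb, Tecr was 1.90 times the WT level in TKO_Ex, 1.91 in DKO_Ex and 1.74 in DKO_CD. In Fb the ratios were 1.61, 1.79 and 1.72. On the log2 scale the difference of all mutants from WT was 0.88 in Mb and 0.77 in Fb, against a WT SD of 0.17 and 0.13. The difference between the tissues in these effects, Mb minus Fb, was 0.24 for TKO_Ex, 0.10 for DKO_Ex and 0.01 for DKO_CD. Without TKO_Ex replicate 3 and WT Mb replicate 5 the all-mutant difference was 0.91 in Mb and 0.78 in Fb. These values chose the gene and carry no test. In 4 of 13441 genes, 0.0298%, each mutant library lay above each WT library over the 2 tissues, and in 0 each lay below.

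With the 3 mutant groups averaged, no other enzyme of the cycle showed a change of that size. Of the 9 other members, 0 passed the threshold in Mb of all mutants against WT (limma, adjusted p under 0.05), where 0.112% of 13363 genes did, and 2 had an unadjusted p under 0.05, as did 7.55% of all genes. In Fb 0 of 9 passed, against 0.226% of 13272 genes, and 1 had an unadjusted p under 0.05, against 9.02%. The median difference of the 9 was 0.09 in Mb and 0.03 in Fb on the log2 scale, beside 0.02 over all genes in each tissue. The highest upper end of their 95% intervals was 0.63 in Mb, a 1.54-fold increase on the FPKM + 1 scale, and 0.46 in Fb, a 1.37-fold increase. Without TKO_Ex replicate 3 and WT Mb replicate 5, 0 of the 9 members passed in either tissue, and Hsd17b12, Hacd1 and Elovl1 stood at 0.13, 0.33 and 0.37 in Mb and at 0.20, -0.24 and -0.30 in Fb. With all libraries, the intervals of the other 9 stayed below the Tecr differences, 0.88 and 0.77, in both tissues. Those Tecr values chose the gene and were set here without their error. The comparison is therefore a description and no test of Tecr against the others.

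**Figure D2:**
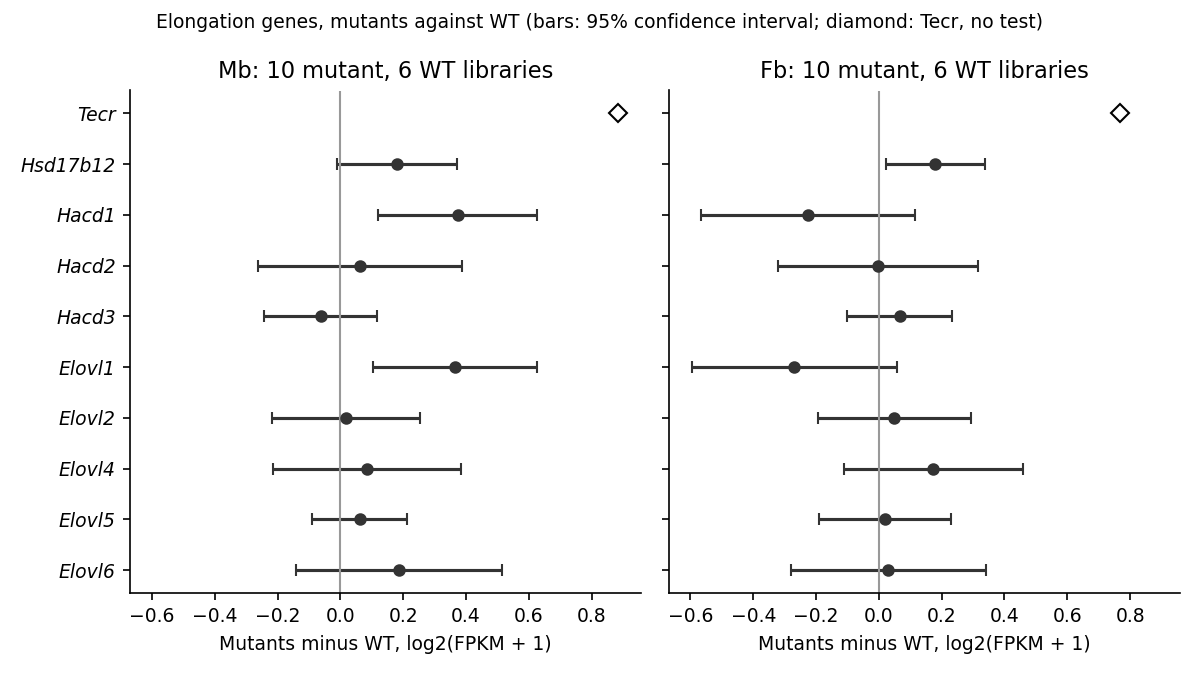
Difference of all mutants from WT on the log2(FPKM + 1) scale for Tecr (diamond) and for the other 9 members (points, with 95% intervals as bars) in Mb and Fb. Tecr stands at 0.88 and 0.77, and no interval of the other 9 members reaches above 0.63 in Mb or 0.46 in Fb.

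In single groups, again as a description, the upper end of the interval stayed below the Tecr difference of that group in 53 of 54 cases. The exception was Elovl1 in DKO_CD Mb, at 0.50 (95% interval 0.09 to 0.91), beside 0.79 for Tecr. In each mutant group alone the count of other members past the threshold was also 0 of 9 in both tissues by limma. All genes passed at 0.0898% in Mb and 0.0603% in Fb for TKO_Ex, at 0.0903% and 0.0759% for DKO_Ex, and at 0.0375% and 0.0378% for DKO_CD. At an unadjusted p under 0.05 the members numbered 1 in TKO_Ex Mb, 1 in DKO_Ex Mb and 2 in DKO_CD Mb, where 8.38%, 5.46% and 6.69% of all genes did. In Fb they numbered 0 in each group, where 8.66%, 7.01% and 8.44% did. With 3 mutant libraries against 6 WT libraries the smallest p the two-sided exact permutation test allows is 0.0238.

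Hsd17b12 carries out the first reduction of the cycle, and its product is the substrate of the dehydratases. In Mb its WT libraries ran from 41.4 to 55.5 FPKM with a median of 46.5. Its TKO_Ex libraries were at 63.6, 57.7, 62.1 and 44.3 FPKM, its DKO_Ex libraries at 54.2, 51.1 and 51.4, and its DKO_CD libraries at 50.2, 49.4 and 57.9. Of the 10 mutant libraries 4 lay above every WT library, and the groups overlapped. In Fb the WT libraries ran from 41.1 to 49.8 FPKM with a median of 46.3, and 7 of 10 mutant libraries lay above them all. The TKO_Ex libraries there were at 54.3, 54.2, 45.4 and 51.9 FPKM, the DKO_Ex libraries at 58.2, 59.3 and 45.0, and the DKO_CD libraries at 51.1, 48.7 and 54.2.

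The difference of Hsd17b12 from WT was 0.18 in Mb (SE 0.09, 95% interval -0.01 to 0.37) and 0.18 in Fb (SE 0.07, 0.02 to 0.34) on the log2 scale. Neither passed with limma, at adjusted p of 0.677 and 0.489. As a single gene the two-sided exact permutation p was 0.0487 in Mb and 0.0177 in Fb, unadjusted, among 18 such tests of which 4 fell under 0.05. Exact tests were run for the members alone, so no share over all genes stands beside that count. Since Tecr was higher by more, the ratio of Tecr to Hsd17b12 FPKM was 3.28 ± 0.60 (SD, n = 6) in WT Mb and 5.23 ± 1.0 in TKO_Ex (n = 4), 5.63 ± 0.43 in DKO_Ex (n = 3) and 5.14 ± 1.03 in DKO_CD (n = 3). In Fb it was 3.40 ± 0.36 in WT and 4.89 ± 0.42, 5.23 ± 0.95 and 5.22 ± 0.05 in the same mutant groups. The rise in the ratio follows from how Tecr was chosen.

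The 3 dehydratases did not move as a group. Hacd1, a dehydratase best known from muscle, had WT libraries from 18.4 to 30.8 FPKM in Mb with a median of 25.6. Its TKO_Ex libraries there were at 24.7, 30.5, 35.6 and 37.2 FPKM, its DKO_Ex libraries at 31.5, 26.3 and 36.8, and its DKO_CD libraries at 29.8, 32.6 and 39.6. Thus 6 of 10 mutant Mb libraries lay above every WT library. In Fb the WT libraries ran from 16.2 to 29.2 FPKM with a median of 20.5. The mutants there were at 23.1, 12.2, 19.8 and 20.6 FPKM in TKO_Ex, 15.9, 15.1 and 17.4 in DKO_Ex, and 15.3, 16.1 and 27.7 in DKO_CD. Of these 5 of 10 lay below every WT library and 0 above.

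The Hacd1 difference was 0.37 in Mb (SE 0.12, 95% interval 0.12 to 0.63) with an adjusted p of 0.405 by limma and an unadjusted two-sided exact permutation p of 0.00949. In Fb it was -0.23 (SE 0.16, -0.57 to 0.11) with an adjusted p of 0.722 by limma. The Mb minus Fb difference of the effect was 0.53 in TKO_Ex, 0.70 in DKO_Ex and 0.58 in DKO_CD, and none passed over all genes, of which 0.0149%, 0.0% and 0.00746% did. Hacd2 differed by 0.06 in Mb (95% interval -0.26 to 0.39) and by -0.00 in Fb (-0.32 to 0.32), with mutant libraries from 4.08 to 9.20 FPKM in Mb and 3.10 to 8.64 in Fb around WT ranges of 4.65 to 8.69 and 3.95 to 6.75. Hacd3 differed by -0.06 in Mb (-0.24 to 0.12) and by 0.07 in Fb (-0.10 to 0.23). Its mutant libraries ran from 21.5 to 28.7 FPKM in Mb and from 19.8 to 27.5 in Fb, beside 23.4 to 32.9 and 19.7 to 25.3 in WT.

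Elovl1 was the elongase with the widest split between tissues. Its WT libraries in Mb ran from 10.001 to 19.5 FPKM with a median of 14.0. The TKO_Ex libraries were at 20.2, 15.7, 13.7 and 14.5 FPKM, the DKO_Ex libraries at 18.6, 18.9 and 19.4, and the DKO_CD libraries at 17.2, 21.3 and 22.3. Of the mutants 3 of 10 lay above every WT library. In Fb the WT libraries ran from 14.5 to 22.9 FPKM with a median of 16.8. The mutants there were at 17.0, 9.97, 16.9 and 14.0 FPKM in TKO_Ex, 14.4, 15.9 and 14.4 in DKO_Ex, and 10.1, 12.9 and 21.9 in DKO_CD, so that 6 of 10 lay below every WT library.

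The Elovl1 difference was 0.36 in Mb (SE 0.12, 95% interval 0.10 to 0.63) with an adjusted p of 0.446 by limma and an unadjusted two-sided exact permutation p of 0.0242. In Fb it was -0.27 (SE 0.15, -0.59 to 0.06) with an adjusted p of 0.651 by limma. The Mb minus Fb difference of the effect was 0.47 in TKO_Ex, 0.64 in DKO_Ex and 0.79 in DKO_CD, and none passed, with an adjusted p of 0.990 by limma for DKO_CD. For this difference between tissues 0 of the 9 members in TKO_Ex, 2 in DKO_Ex, Elovl1 and Hacd1, and 1 in DKO_CD, Elovl1, had an unadjusted p under 0.05, where 6.5%, 3.88% and 4.83% of all genes did. Elovl1 overlaps Cdc20, a cell cycle gene transcribed from the opposite strand at 122 to 173 FPKM. The libraries were directional. Cdc20 differed by -0.09 in both tissues, and by group from -0.19 in DKO_Ex Mb to 0.003 in DKO_CD Mb. The part of Cdc20 reads in the Elovl1 values was not tested.

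The markers of mesenchyme and neural crest stood on the same side of WT as Hacd1 and Elovl1. None of the 6 passed the threshold in all mutants against WT with limma, and 3 had an unadjusted p under 0.05 in each tissue, higher in Mb and lower in Fb, beside 7.55% and 9.02% of all genes. The summed level of the 6 markers was 58.2 to 100.7 FPKM in WT Mb, with a median of 70.4, and 67.3 to 151.9 in mutant Mb, with a median of 85.4. In Fb it was 135 to 173.4 FPKM in WT, with a median of 157.3, and 72.5 to 169.1 in the mutants, with a median of 123.9. By mutant group the Mb median was 74.7 FPKM in TKO_Ex, 81.2 in DKO_Ex and 107.9 in DKO_CD. No marker of the list was at 0 in all libraries. Surface ectoderm markers, 5 genes with none at 0 in all libraries, were on the higher side in both tissues, as Tecr and Hsd17b12 were, and so opposite to Hacd1 and Elovl1 in Fb. Their summed level was 23.3 to 36.4 FPKM in WT Mb, with a median of 24.7, and 20.3 to 70.6 in mutant Mb, with a median of 34.03. In Fb it was 57.1 to 94.3 FPKM in WT, with a median of 75.4, and 75.6 to 221.8 in the mutants, with a median of 96.8. Of these markers 0 passed with limma, and 1 of 4 tested in Mb and 2 of 5 in Fb had an unadjusted p under 0.05. In TKO_Ex Fb 4 of 5 did, beside 8.66% of all genes. Other marker lists differed from WT as well. The summed neuroepithelium markers had a median of 534.5 FPKM in mutant Fb and 485.8 in WT Fb, and 781.9 and 774.2 in Mb. Those of early neurons had a median of 33.8 FPKM in mutant Mb and 45.2 in WT Mb, and 7.96 and 6.58 in Fb. The part of any cell type in the values of the members was not tested.

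The remaining elongases differed from WT by less than Elovl1 did in both tissues. Elovl5 differed by 0.06 in Mb (95% interval -0.09 to 0.21) and 0.02 in Fb (-0.19 to 0.23), with mutant libraries from 37.7 to 51.2 FPKM in Mb and from 31.9 to 46.8 in Fb, beside 38.0 to 49.1 and 32.2 to 48.6 in WT. Elovl2, which acts on longer polyunsaturated chains than Elovl5, differed by 0.02 in Mb (-0.22 to 0.25) and 0.05 in Fb (-0.19 to 0.29). Its mutant libraries ran from 14.1 to 21.5 FPKM in Mb and from 10.97 to 17.9 in Fb, beside 13.7 to 21.997 and 10.6 to 16.1 in WT. Elovl4, needed for the longest chains in retina, skin and brain, differed by 0.09 (-0.21 to 0.38) and 0.17 (-0.11 to 0.46). Its mutant libraries reached 9.0 FPKM in Mb and 9.87 in Fb, beside 7.87 and 6.804 in WT. None of these passed the threshold with limma, and the intervals leave room for smaller changes in either direction. Elovl6, which lengthens palmitate, had the widest interval among these in Mb. It differed by 0.19 in Mb (-0.14 to 0.52) and 0.03 in Fb (-0.28 to 0.34), and 3 of 10 mutant Mb libraries, at 30.8, 25.9 and 24.8 FPKM, lay above the WT range of 12.7 to 23.6.

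**Figure D3:**
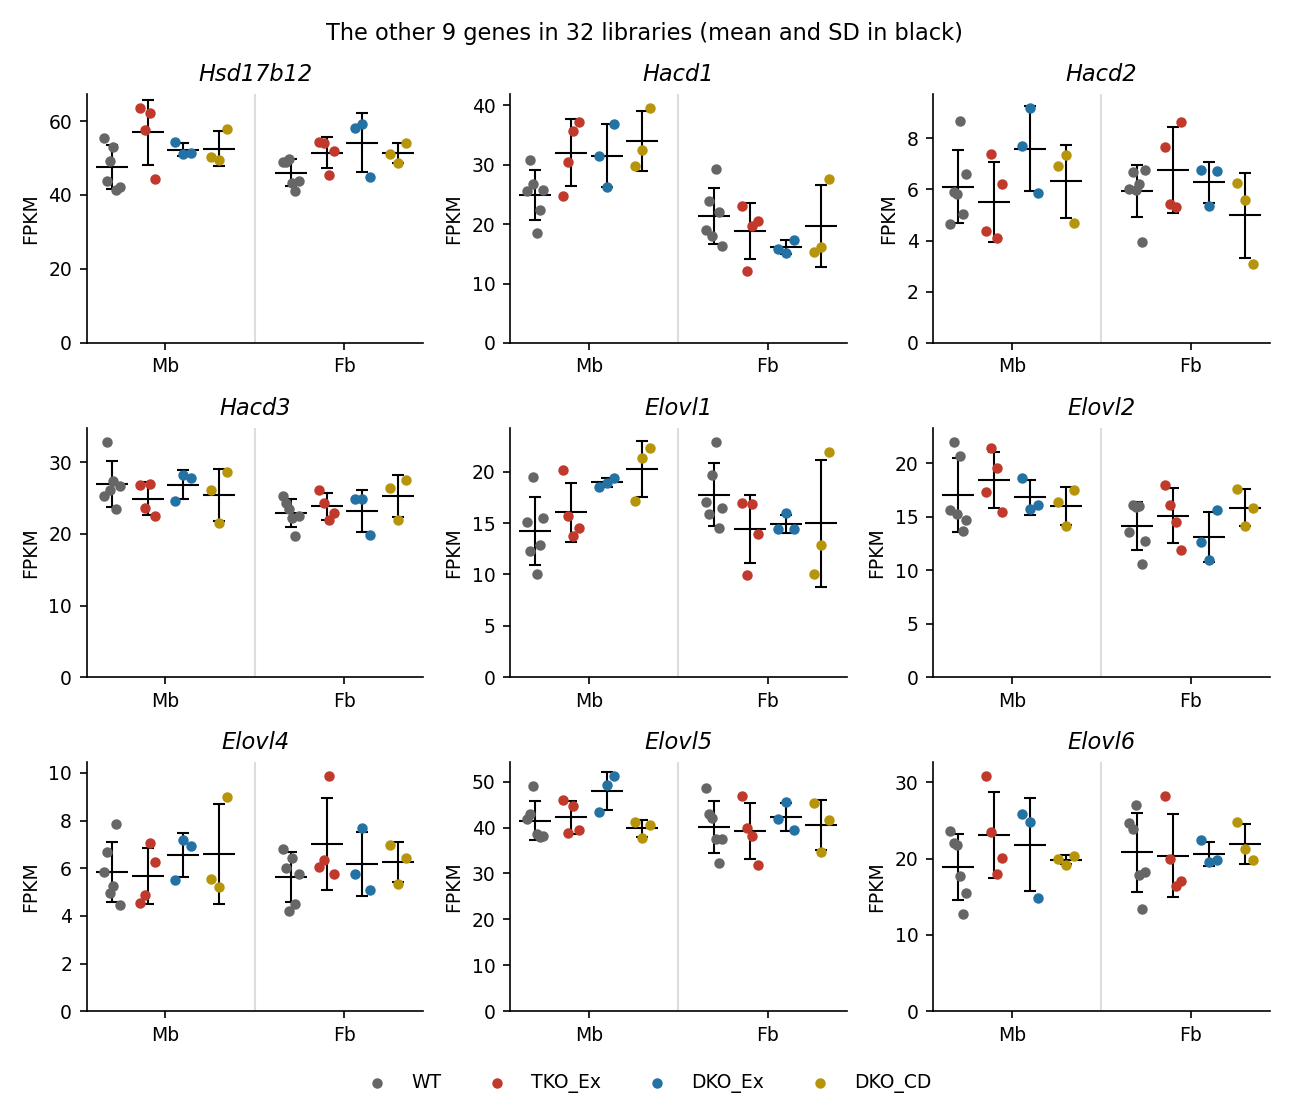
FPKM of the 9 other members in each library (points) of WT, TKO_Ex, DKO_Ex and DKO_CD in Mb and Fb, with the mean and SD of each group. Mutant and WT libraries overlap in each panel. Hsd17b12 leans up, where 7 of 10 mutant libraries exceed every WT library in Fb and 4 of 10 in Mb. Hacd1 leans up in Mb, where 6 of 10 exceed every WT library. Elovl1 leans down in Fb, where 6 of 10 lie below. Such counts were not made over all genes.

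Among the 54 tests of a single member in a single mutant group, 4 gave a two-sided exact permutation p under 0.05, all at 0.0476 unadjusted. The exact test was run for the members alone, so it gives no share over all genes. By limma 5.46% to 8.66% of all genes had an unadjusted p under 0.05 in these comparisons. The tests under 0.05 are listed as a description. The 4 were Elovl5 in DKO_Ex Mb at 0.21, Hacd1 in DKO_Ex Fb at -0.36, Hacd1 in DKO_CD Mb at 0.44 and Elovl1 in DKO_CD Mb at 0.50 on the log2 scale. With limma over all genes their adjusted p were 0.904, 0.714, 0.646 and 0.680.

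By summed FPKM of the 10 members, Tecr made up 43.0% in WT Mb, from 40.4% to 46.4% over 6 libraries, and 44.5% in WT Fb, from 41.6% to 46.8%. In the mutants its share was 48.8% to 58.6% in Mb and 54.5% to 60.7% in Fb. The rise in the share follows from how Tecr was chosen and is a description. The other 9 together were 203 ± 17.1 FPKM in WT Mb (SD, n = 6), 225 ± 14.0 in TKO_Ex (n = 4), 230 ± 0.38 in DKO_Ex (n = 3) and 221 ± 17.4 in DKO_CD (n = 3). In Fb they were 195 ± 19.5 in WT, 197 ± 20.2 in TKO_Ex, 197 ± 11.7 in DKO_Ex and 201 ± 19.0 in DKO_CD. The mutant means of the Fb sum lay within 1 WT SD of the WT mean, whereas those of the Mb sum lay beyond it. In Mb the 3 DKO_Ex sums, 229.97 to 230.7 FPKM, all lay above the highest WT sum of 219 FPKM. How often sums of other gene sets separate these libraries was not counted, so this is a description.

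The genes whose pattern over the 32 libraries was most like that of Tecr were not members. Likeness was the root mean square distance of log2(FPKM + 1) values after subtracting the WT mean of each tissue, over 13440 genes. The nearest was Lpar2, a receptor for lysophosphatidic acid, at a distance of 0.17, with 2.30 to 4.20 FPKM in WT and 4.15 to 8.32 in mutant libraries. Wdr83os followed at 0.24, with 36.0 to 68.3 FPKM in WT and 55.4 to 98.2 in the mutants, then D8Ertd738e at 0.27, Elmod2 at 0.28 and the pseudogene Rps25-ps1 at 0.28. Of the 5, 4 lie on chromosome 8 with Tecr, which carries 4.82% of the genes compared. The distance rests largely on the mutant values by which Tecr was chosen, so these counts are a description and no test. The nearest member was Hsd17b12 at 0.54, rank 385, and the other 8 lay at 0.62 to 0.70, beside 0.72 for the median gene and 0.67 for a gene with no change at all.

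On GRCm38 Tecr lies on chromosome 8 from 83571698 to 83607971 on the minus strand. Of the targeted genes, Cdh8 and Cdh11 are on the same chromosome, 15.4 and 19.0 Mb away, and Cdh6 is on chromosome 15. No other member lies on chromosome 8: Hsd17b12 and Hacd1 are on chromosome 2, Hacd3, Elovl4 and Elovl5 on chromosome 9, Elovl6 on 3, Elovl1 on 4, Elovl2 on 13 and Hacd2 on 16. Within 1 Mb of Tecr there are 39 protein-coding genes, of which 25 could be tested in Mb and 26 in Fb. In Mb 1 passed the threshold, Elmod2, and in Fb 2 did, Elmod2 and D8Ertd738e, beside 0.112% and 0.226% of all genes. Elmod2, which encodes a GTPase-activating protein for small GTPases, was 6.33 ± 1.31 FPKM in the 10 mutant Mb libraries and 3.42 ± 0.56 in the 6 of WT, a log2 difference of 0.73 with an adjusted p of 0.0186 by limma. In Fb its difference was 0.72 with an adjusted p of 0.0152 by limma.

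D8Ertd738e was 246 ± 26.4 FPKM in mutant Fb (n = 10) and 146 ± 23.0 in WT Fb (n = 6), with an adjusted p of 0.00304 by limma. In Mb it was 222 ± 25.1 and 122 ± 35.3 FPKM, with an adjusted p of 0.0654 by limma. That value passed under 4 of 26 alternatives, with median-of-ratios scaling, with quantile normalization, with at least 1 FPKM required in every library and without WT Mb replicate 6, down to 0.00221. The Elmod2 call in Mb was lost when WT Mb replicate 2, 3 or 5 was left out, and in Fb when WT Fb replicate 5 was. The Mb call was also lost without TKO_Ex replicate 3 and WT Mb replicate 5 together. Over all alternatives the adjusted p of Elmod2 by limma reached up to 0.105 in Mb and 0.404 in Fb. The genes beside Tecr, Ndufb7 and Dnajb1, differed by 0.03 and -0.13 in Mb and by -0.01 and -0.15 in Fb. Of the tested neighbours 15 lay above 0 and 10 below in Mb, and 17 above and 9 below in Fb. The part of chromosomal position in the Tecr values was not tested.

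**Figure D4:**
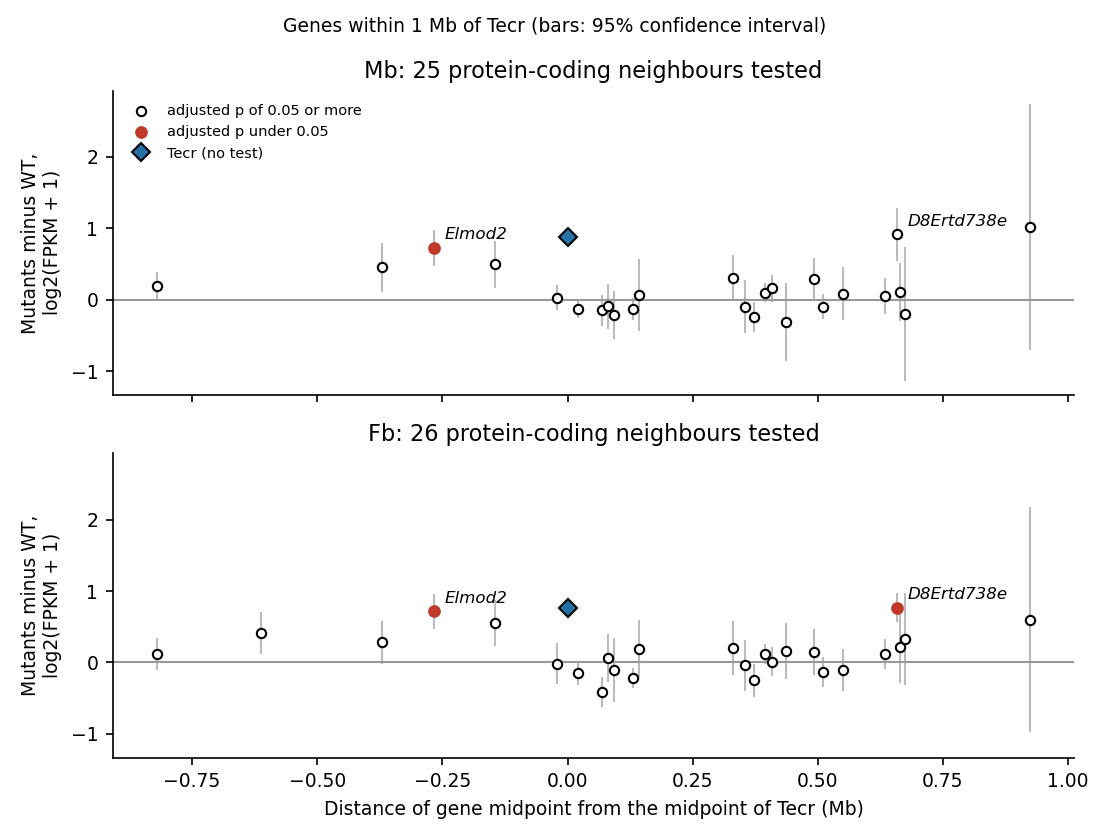
Difference of all mutants from WT on the log2(FPKM + 1) scale for Tecr and the tested protein-coding genes within 1 Mb of it, by distance between gene midpoints in megabases, for the tissues Mb and Fb, with 95% intervals as bars and genes past the threshold filled. Elmod2 and D8Ertd738e, at 0.72 and 0.77 in Fb, stand near the level of Tecr, while Ndufb7 and Dnajb1 lie near 0. Scoc, at 0.55 in Fb, and Gipc1, at -0.42, lie farther from 0 and did not pass the threshold. Cacna1a, at 1.02 in Mb (-0.70 to 2.74) and 0.60 in Fb (-0.98 to 2.17), did not pass either.

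The 4 genes with every mutant library above every WT library were Tecr, D8Ertd738e, Tpm4 and Rps3a3. Rps3a3, a processed pseudogene on chromosome 13, had the widest gap, 0.60 on the log2 scale between its lowest mutant and highest WT library, with 174 to 270 FPKM in WT and 410 to 811 in the mutants. For Tecr the gap was 0.28. D8Ertd738e had 0.04 and Tpm4, a tropomyosin gene on chromosome 8, had 0.02. Reads of Rps3a3 can be shared with its parent gene and its level is uncertain. A copy of Tecr sequence on chromosome 17 that matches 93.3% over 807 bp was not analysed here. Among the other members, Hacd1 shares a stretch with the pseudogene Gm11451, listed at up to 4.11 FPKM, and Elovl6 with Gm11295, at up to 1.35 FPKM, so reads of these genes could be split between copies.

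Genes around the cycle were read as lists. The further elongation genes Elovl3, Elovl7 and Tecrl stayed at or below 0.34, 0.56 and 1.08 FPKM in every library, and Hacd4 at 0.498 to 2.57. Of the genes for fatty acid supply and desaturation, 0 of 16 tested passed in Mb and 0 of 17 in Fb for all mutants against WT with limma, and 0 and 1 had an unadjusted p under 0.05. Over all genes 0.112% and 0.226% passed. The largest differences were 0.33 for Acsl6, an acyl-CoA synthetase, in Mb and 0.76 for Acacb, which makes malonyl-CoA, in Fb, with adjusted p of 0.777 and 0.553.

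Sphingolipid synthesis draws on the products of the cycle, and its genes were listed together with those of sphingosine 1-phosphate breakdown. In this list 0 of 16 genes passed in either tissue with limma, with 2 at an unadjusted p under 0.05 in Mb, beside 7.55% of all genes, and 0 in Fb. Sgms1, a sphingomyelin synthase, was at -0.63 in Mb with an adjusted p of 0.585, and Cers6, a ceramide synthase, at -0.40 with an adjusted p of 0.857. Of 11 genes for peroxisomal breakdown of very long chains 0 passed with limma, with 0 at an unadjusted p under 0.05 in Mb and 3 in Fb, beside 9.02% of all genes. Abcd2, a peroxisomal transporter of fatty acyl-CoA, was at 0.57 in Fb with an adjusted p of 0.153. The medians of the 3 lists were 0.09, 0.03 and 0.02 in Mb and 0.05, 0.00 and 0.07 in Fb, beside 0.02 over all genes.

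Between the WT tissues 2 of the 44 list genes tested, 4.55%, passed the threshold, beside 8.26% of all genes. The acyl-CoA synthetase Acsl5 was lower in Mb, at 5.24 ± 1.24 FPKM against 9.04 ± 0.94 in Fb (SD, n = 6 each), a log2 difference of -0.71 with an adjusted p of 0.00556 by limma. Abcd2 was higher in Mb, at 3.59 ± 0.78 against 1.88 ± 0.39 FPKM, a difference of 0.67 with an adjusted p of 0.0120 by limma.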

How the data were processed

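RNA of Fb and Mb from embryonic day 9.5 mice was sequenced by the authors from directional Illumina libraries, aligned to GRCm38 (mm10) with TopHat2, and the deposited values are FPKM made by the authors with Cufflinks. Versions are not given in the sources used here. The counts the authors used for their own tests were not used here. Identifiers listed more than once, 65 in all, were summed, and 48218 identifiers were placed with the GENCODE annotation. Samples were grouped by column heading.

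Genes whose mean over the libraries compared reached 1 FPKM were analysed as log2(FPKM + 1) in R 4.3.3 with limma 3.58.1 (lmFit, eBayes with a trend), two-sided, with Benjamini-Hochberg adjustment over all genes tested and a threshold of 0.05. Each of the 3 mutant groups, and their mean, was compared with WT within each tissue, WT Mb with WT Fb, and the effects between tissues by an interaction term. A fold change on this scale understates the change of low genes. Single members were also compared with two-sided exact permutation tests (SciPy 1.17.1), unadjusted. The fits and the depth estimate were tested on simulated data.

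Depth was recovered from the FPKM step worth 1 fragment in 771 long genes with a single transcript. Between 81.3% and 89.9% of low values lay within 0.15 fragments of a whole number. FPKM of other genes are estimates, so no counting interval was made. Near copies were searched with BLAST 2.17.0 at 90% identity or more over at least 200 bp.

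Members, lists and rules were chosen with earlier results of these data known. Named were all members, list genes and neighbours past the threshold or else the 2 with the largest difference, the 5 genes most like Tecr, genes with no overlap between mutant and WT libraries, and the targeted genes. Alternatives were other pseudocounts, filters and scalings, the record's DKO groups, a replicate block and leaving out libraries.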

Additional observations from a re-analysis of the deposited data

Results flagged for a closer look

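In 40 groups of 4 to 6 libraries of a member gene, 2 held a library set apart from the others of its group by Dixon's test, and chance alone flags about 1 group in 20. Hacd2 in WT Fb replicate 5 was low, at 3.95 FPKM. Elovl4 in TKO_Ex Fb replicate 3 was high, at 9.87 FPKM. The count of 2 in 40 is no more than that rate. The TKO_Ex library also had Cdh6 within the WT range and the lowest Tecr of the mutants. Whether these values go together was not tested.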

How the results depend on the processing

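Across all alternatives the 9 other members, and Tecr between the WT tissues, stayed at 0 past the threshold in 2560 recomputed values. The smallest adjusted p was 0.0981 (limma), for Hacd3 between the WT tissues. Of these uncalled differences 185 changed sign. The Tecr difference of mutants from WT stayed between 0.63 and 1.0 over 172 recomputations. Counts over all genes were less stable. For all mutants against WT, 15 genes in Mb became 7 under the replicate block and 9 without WT Mb replicate 5, and 30 in Fb became 9 under the block, 16 with no filter on low values and 12 without WT Fb replicate 2 or 5. For TKO_Ex Mb, 12 genes became 52 without WT Mb replicate 1. Between the WT tissues the count of 1102 ranged from 780 to 1317. With the replicate number as a block, 0 members other than Tecr passed in any comparison. The numbers are not stated to pair libraries: correlations of deviations ran from 0.0076 to 0.14 between tissues and from -0.086 to 0.049 between mutants and WT. As a hint from the data, 13 of 16 Mb libraries correlated best with the Fb library of their own number. Under the block Elmod2 lost its call in both tissues, and Abcd2 its call between the WT tissues (adjusted p = 0.0586, limma). Elovl4 and Hacd2 rested on 28 to 102 fragments per library. Their intervals leave room for small changes, and the part of depth in this was not tested.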
